A study of Homo sapiens with 14 samples.

Results

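The sites described here are promoter peaks of the transcription factor KLF4, mapped by ChIP-seq, that arsenic-treated WT cells and untreated Nrf2 KO cells had in common. No peak was listed at these sites in untreated WT cells. They were chosen by 3 conditions on the deposited peak lists. A site is a peak of the WT As3+ list on chromosomes 1 to 22 or X whose summit lay within 2 kb of the transcription start site (TSS) of any GENCODE gene. It shares at least 1 bp with a peak of the Nrf2 KO control list, and it shares none with a peak of the WT control list. Of 29866 WT As3+ peaks, 11096 met the rule. The presence of a peak in WT As3+ and in Nrf2 KO control and its absence from WT control were therefore selected on, and are given as a description without a test.

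BEAS-2B is an immortalised human bronchial epithelial cell line. WT cells and Nrf2 KO cells were left untreated (control) or were treated with 1 µM trivalent arsenic (As3+) for 6 h. The Nrf2 KO was made by CRISPR-Cas9 with guides against exon 2 of the Nrf2 gene (NFE2L2), and colonies that went through the same selection and still expressed Nrf2 protein served as WT, so both lines derive from colonies picked on a protein blot. Each of the 4 conditions was represented by 1 KLF4 library, and no condition had a replicate. Every difference between conditions below is thus a difference between single libraries, and intervals cover counting error only. All 4 libraries were made with the same anti-KLF4 antibody from formaldehyde-fixed chromatin.

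KLF4 is a zinc-finger transcription factor of the KLF and SP family, which recognises GC-rich DNA and CACCC sequences. It takes part in epithelial differentiation, cell cycle arrest and the maintenance of pluripotency. Nrf2 is the transcription factor of the oxidative and electrophilic stress response. KEAP1 holds it at a low level until agents such as As3+ modify KEAP1 cysteines, after which it binds antioxidant response elements (AREs) with a small MAF partner. Most human promoters lie in CpG islands, stretches of DNA rich in G, C and the CpG dinucleotide, at which many GC-binding factors compete for related sequences.

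Sequences at the summits of the strongest shared sites are shown first, since the composition of these windows is described below. Each run spans 50 bp on either side of the WT As3+ summit base, read 5′ to 3′ on the plus strand of GRCh38/hg38, and the 8 sites are among the 10 strongest by −log10 p in WT As3+. Capitals mark words from a fixed set, searched on both strands: the KLF words CCACACCC and CCACGCCC, the GC box GGGGCGGGG, the ETS word CCGGAAG, the NRF1 word GCATGCGC, CCAAT, the YY1 word AAGATGGC, the CRE TGACGTCA, the AP-1 word TGACTCA, and TCTCGCGA.
HPCAL1, chr2:10302531-10302631: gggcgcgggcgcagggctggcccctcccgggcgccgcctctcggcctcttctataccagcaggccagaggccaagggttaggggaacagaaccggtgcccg
MAPK11, chr22:50271776-50271876: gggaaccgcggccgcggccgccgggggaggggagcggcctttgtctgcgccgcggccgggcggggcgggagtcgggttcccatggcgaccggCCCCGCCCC
MYL12B, chr18:3261948-3262048: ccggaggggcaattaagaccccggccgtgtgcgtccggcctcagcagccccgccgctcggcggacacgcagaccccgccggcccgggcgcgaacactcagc
CLDN6, chr16:3020998-3021098: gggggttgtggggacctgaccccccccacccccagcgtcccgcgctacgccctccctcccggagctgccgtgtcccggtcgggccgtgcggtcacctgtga
TMSB10, chr2:84905745-84905845: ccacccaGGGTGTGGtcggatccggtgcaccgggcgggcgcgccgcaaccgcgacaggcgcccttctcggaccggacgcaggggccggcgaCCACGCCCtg
NCOA3, chr20:47501748-47501848: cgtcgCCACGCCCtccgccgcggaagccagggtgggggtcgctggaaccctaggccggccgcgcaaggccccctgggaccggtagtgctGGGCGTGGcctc
N4BP2, chr4:40056647-40056747: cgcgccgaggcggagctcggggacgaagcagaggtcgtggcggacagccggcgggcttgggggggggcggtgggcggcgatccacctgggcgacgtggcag
PRPH, chr12:49296591-49296691: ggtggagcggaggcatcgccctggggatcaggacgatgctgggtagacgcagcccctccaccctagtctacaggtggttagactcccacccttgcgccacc
GC content of these 8 windows ranged from 65.3% at PRPH to 84.2% at MAPK11. TMSB10 and NCOA3 each held 2 KLF words and MAPK11 held 1 GC box, whereas the other 5 windows held none of the words. HPCAL1 encodes a neuronal calcium sensor, MAPK11 the p38 beta kinase, MYL12B a myosin regulatory light chain, CLDN6 a tight junction claudin, TMSB10 an actin-sequestering thymosin, NCOA3 a nuclear receptor coactivator, and PRPH the intermediate filament peripherin.

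A further 3 windows come from the few shared sites that also had a peak in Nrf2 KO As3+ cells, drawn with the same limits and the same marking.
NAA50P2, chr3:196528832-196528932: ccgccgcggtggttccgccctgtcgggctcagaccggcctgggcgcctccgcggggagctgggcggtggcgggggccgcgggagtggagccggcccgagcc
CYRIA, chr2:16664511-16664611: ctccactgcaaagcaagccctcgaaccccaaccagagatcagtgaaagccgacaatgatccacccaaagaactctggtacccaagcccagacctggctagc
RAB6A, chr11:73761434-73761534: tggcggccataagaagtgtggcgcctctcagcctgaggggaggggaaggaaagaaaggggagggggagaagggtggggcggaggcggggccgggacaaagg
None of the words was present in these 3 windows. NAA50P2 is a pseudogene, CYRIA encodes a regulator of RAC1 signalling to actin, and RAB6A a small GTPase of Golgi traffic.

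Promoter peaks made up 15048 of the 29866 WT As3+ peaks, or 50.4%. A WT control peak overlapped 186 of them. Of the remaining 14862, 11096 had a Nrf2 KO control peak, a share of 74.7% (95% exact binomial interval 74.0 to 75.4). Across all WT As3+ peaks, promoter and distal together, 55.6% overlapped a Nrf2 KO control peak. Among peaks farther than 2 kb from a TSS and without a WT control peak, 5106 of 14363 did so, or 35.5% (34.8 to 36.3). From the side of the Nrf2 KO control list, 42.8% of promoter peaks (11160 of 26075) and 10.8% of distal peaks overlapped a WT As3+ peak. A single Nrf2 KO control peak lay over 10122 of the shared sites, 2 peaks lay over 938, and 3 or 4 over 36.

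The lists differed in ways that touch every comparison between them. On these chromosomes they held 751 peaks in WT control, 29866 in WT As3+, 76521 in Nrf2 KO control and 130 in Nrf2 KO As3+. Fold enrichment and p of each peak could be solved for a whole number of fragments over the summit and an expected background, with a largest misfit of 0.00041 in −log10 p. The lowest background was 0.757 fragments in WT As3+ and 0.491 in Nrf2 KO control, against 1.90 in WT control and 1.64 in Nrf2 KO As3+. The libraries with long lists were thus the ones with the lower minimum. At its lowest background, the WT control list began at a fold of 5.85, which 31.0% of the shared sites (3445) reached in WT As3+. The Nrf2 KO As3+ list began likewise at 4.17, which 89.0% (9877) reached in Nrf2 KO control. A missing WT control peak is thus a peak not listed, and need not be a site without KLF4. The part of background in the absence of WT control peaks was not tested. Sequencing depth per library is unknown from these lists.

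The frequency of sharing rose with the strength of the WT As3+ peak, given here as the deposited −log10 p. Below a −log10 p of 5, 58.9% (56.4 to 61.3) of promoter peaks without a WT control peak had a Nrf2 KO control peak. The share was 74.7% between 7 and 8, 86.9% between 10 and 12, and 97.3% (94.9 to 98.8, 323 of 332) at 20 or more. Distal peaks followed the same course at a lower level, from 21.7% (20.2 to 23.3) in the lowest bin to 88.4% (83.1 to 92.5) in the highest. At each strength the promoter share was the higher one, by a margin that narrowed above a −log10 p of 10. Interval width was not held equal across these bins, and a wider interval is more likely to overlap another.

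**Figure D1:**
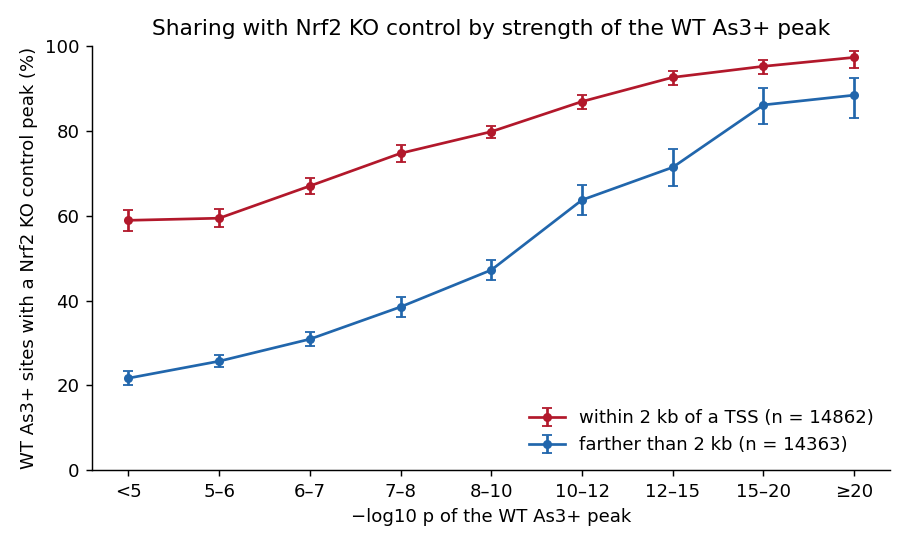
Share of WT As3+ peaks without a WT control peak that overlapped a Nrf2 KO control peak (vertical axis, %), in bins of the −log10 p of the WT As3+ peak (horizontal axis). Points are shares within 2 kb of a TSS (red) and farther away (blue), bars are 95% exact binomial intervals. The red points run from 58.9% to 97.3% and lie above the blue ones, which run from 21.7% to 88.4%.

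The shared sites were moderately enriched in both libraries. In WT As3+ the median fold over background was 5.11, with quartiles of 4.30 and 6.19 and a range of 2.57 to 19.6, and the median summit stood on 13 fragments. In Nrf2 KO control the median fold was 5.78, with quartiles of 4.77 and 7 and a range of 2.67 to 23.4, on a median of 11 fragments. Fold values were not compared between the libraries, because their backgrounds differed. Median interval width was 394 bp in WT As3+ and 522 bp in Nrf2 KO control. WT As3+ promoter sites without a Nrf2 KO control peak (3766 sites) had a median fold of 4.53 and a median width of 252 bp. Nrf2 KO control promoter sites without a WT As3+ or WT control peak (14911 sites) had a median fold of 4.69 and a median width of 270 bp. Since a wider interval is more likely to overlap another, and the rule asks for overlap, these values describe what was selected.

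Across the 11096 sites, Spearman's rho between the folds in WT As3+ and Nrf2 KO control was 0.206 and that between the widths 0.215. The points are sites of the same pair of libraries, and only sites listed in both enter, which narrows the range of both values. Neighbouring sites over the same Nrf2 KO control peak each took its values, so neither these points nor the summit distances below are independent. No p is therefore given. The weakest 1110 sites by WT As3+ −log10 p (3.18 to 5.22) had a median −log10 p of 7.99 in Nrf2 KO control, and the strongest 1110 (14.8 to 50.8) had one of 11. Summits of the 2 libraries were a median of 135 bp apart, with quartiles of 58 and 261 bp. They lay within 50 bp of each other at 22.1% of sites and more than 500 bp apart at 7.13%. The WT As3+ summit fell inside a Nrf2 KO control interval at 80.7% (80.0 to 81.5) of sites. Nrf2 KO control summits showed no displacement along the gene, with a median shift of 2 bp downstream.

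**Figure D2:**
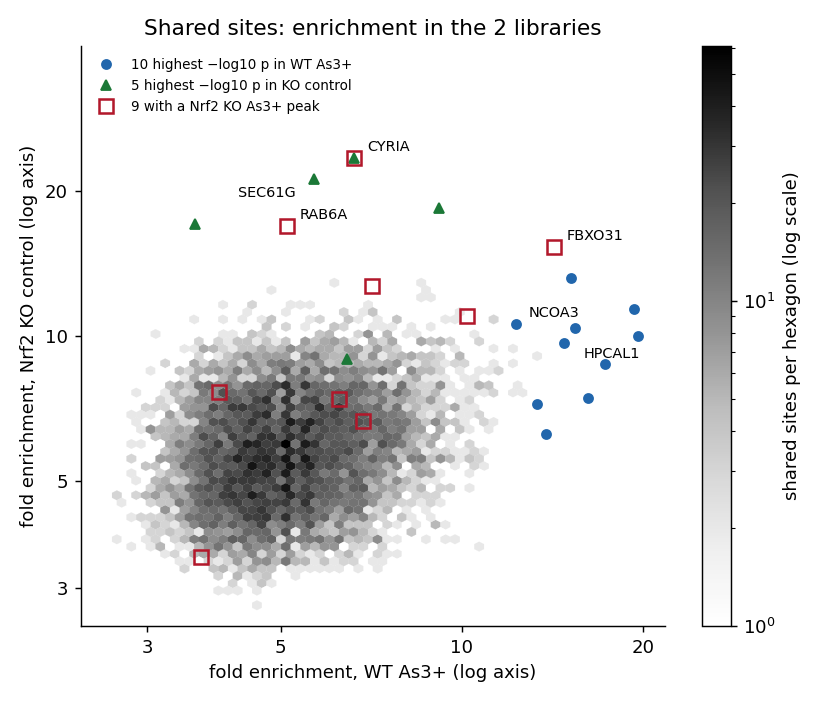
Fold enrichment of the 11096 shared sites in WT As3+ (horizontal axis, log scale) and Nrf2 KO control (vertical axis, log scale). Grey hexagons count sites, and symbols mark the 10 sites with the largest −log10 p in WT As3+ (circles), the 5 with the largest in Nrf2 KO control (triangles) and the 9 with a Nrf2 KO As3+ peak (squares). The circles sit far to the right at 12.3-fold to 19.6-fold, the triangles mostly at the top, and the squares are scattered from the weakest sites to FBXO31.

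At the top of the WT As3+ ranking, the interval chr2:10302367-10303331 near HPCAL1 had a fold of 19.6 and a −log10 p of 50.8, with its summit 308 bp upstream of the TSS. Its Nrf2 KO control peak had a −log10 p of 17.9. MAPK11 followed with a fold of 19.3 in WT As3+ and 11.4 in Nrf2 KO control, at a summit 1059 bp upstream. MYL12B had folds of 15.2 and 13.2, NCOA3 12.3 and 10.6, N4BP2 17.3 and 8.77, and TMSB10 13.8 and 6.27, in that order of libraries. The 10 strongest sites were on 9 chromosomes, and none had a Nrf2 KO As3+ peak. In each of these 10 the 2 summits were at most 122 bp apart, against the median of 135 bp for all sites.

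The 5 sites with the strongest overlapping Nrf2 KO control peak were different ones. SEC61G, a subunit of the endoplasmic reticulum translocon, had a fold of 21.2 and a −log10 p of 54.3 in Nrf2 KO control and a fold of 5.67 in WT As3+. CYRIA had folds of 23.4 in Nrf2 KO control and 6.62 in WT As3+, and TUBB2A, a beta-tubulin, 17.1 and 3.60. At these 3 genes the summits lay 807 to 913 bp apart, so the small WT As3+ peak overlapped a wide Nrf2 KO control peak away from its summit. TIGD5, a transposase-derived gene, had coinciding summits 1 bp apart, with folds of 18.4 in Nrf2 KO control and 9.15 in WT As3+. NBPF1 also had coinciding summits, 2 bp apart, on a high background of 6.24 fragments in Nrf2 KO control. NBPF1 belongs to a family of near-identical gene copies, and its reads may be shared among them.

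A Nrf2 KO As3+ peak overlapped 9 of the 11096 shared sites, or 0.0811% (0.0371 to 0.154). Across all WT As3+ peaks 0.248% (74 of 29866) had one, and among WT As3+ promoter sites without a Nrf2 KO control peak 3 of 3766 did, or 0.0797% (0.0164 to 0.233). The intervals of these promoter shares overlapped. By contrast, 26 of the 186 promoter peaks that were also listed in WT control had a Nrf2 KO As3+ peak, 14.0% (9.34 to 19.8). The whole Nrf2 KO As3+ list held 130 peaks, so few sites of any kind could have one. The part of that library's background in the loss of peaks was not tested.

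The 9 sites included those near FBXO31, PTCD1, NAA50P2, CYRIA, RAB6A and SLX4IP and those near 2 genes without a symbol. Their Nrf2 KO As3+ folds ranged from 3.23 at NAA50P2 to 8.35 at CYRIA. FBXO31, an F-box protein of ubiquitin ligases, had folds of 14.2 in WT As3+, 15.3 in Nrf2 KO control and 4.88 in Nrf2 KO As3+. RAB6A had 5.13, 16.9 and 4.07 in the same order. SLX4IP, which acts with a DNA repair nuclease complex, had 3.68, 3.48 and 4.05, with the largest background of the 9 in Nrf2 KO As3+ (6.65 fragments). Only at CYRIA did a WT control peak lie near, 264 bp from the WT As3+ interval, whereas at the other 8 sites the nearest was 96513 bp away or farther.

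Summits of the shared sites were concentrated just downstream of the TSS. The 100-bp bin from 100 to 200 bp downstream held the most, with 1266 sites (11.4%), followed by the first 100 bp with 1168 (10.5%). Median absolute distance was 309 bp, and 34.6% (33.7 to 35.5) of summits were upstream. A summit within 250 bp of the TSS was found at 43.2% of shared sites and 30.7% of WT As3+ promoter sites without a Nrf2 KO control peak, a difference of 12.5 percentage points (95% Newcombe interval 10.8 to 14.2). Against Nrf2 KO control promoter sites without a WT As3+ peak (24%) the difference was 19.2 points (18.0 to 20.3). Conversely, 13.1% of shared sites and 28.1% of the WT As3+ promoter sites without a Nrf2 KO control peak were beyond 1000 bp. Since the shared sites had the stronger WT As3+ peaks, the comparison was repeated within 8 bins of −log10 p that each held at least 20 sites of both kinds. The shared sites were more often within 250 bp in 7 of the 8 bins, with an interval above 0 in 6. In the bin from 15 to 20, with 37 comparison sites, the direction was opposite, 51.0% against 67.6%.

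**Figure D3:**
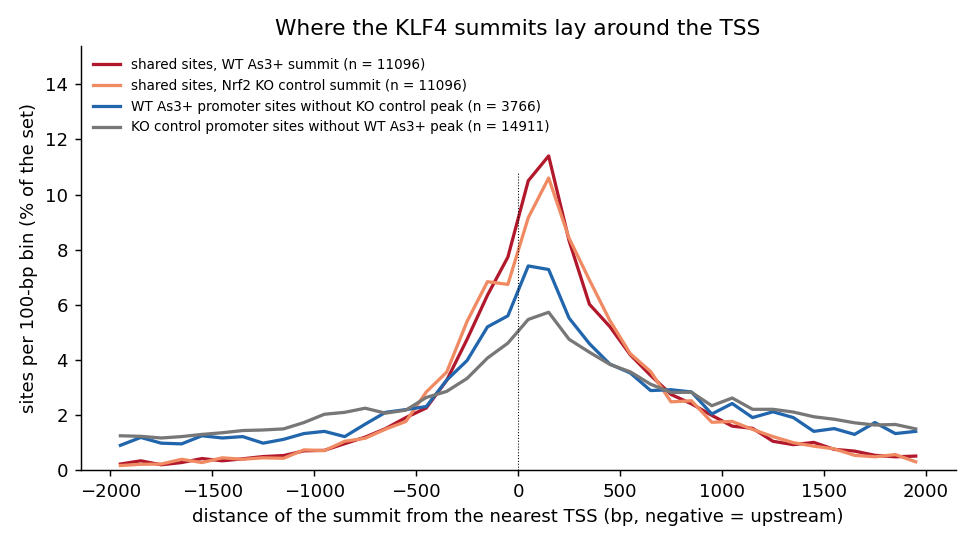
Distance of KLF4 summits from the nearest TSS (horizontal axis, bp, negative is upstream) against the share of each set per 100-bp bin (vertical axis, %). Red and orange lines are the WT As3+ and Nrf2 KO control summits of the shared sites, blue the WT As3+ promoter sites without a Nrf2 KO control peak, grey the Nrf2 KO control promoter sites without a WT As3+ peak. The red line peaks at 11.4% just downstream of the TSS, higher and narrower than the blue and grey lines.

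Each summit was also placed on the canonical transcript of 1 gene. This was the nearest protein-coding gene where its TSS lay within 2 kb, and otherwise the gene with the nearest TSS. On that transcript, 46.2% of summits lay upstream, 20.7% in exon 1 and 28.7% in intron 1. Later exons held 1.46% and later introns 1.70%. Because GENCODE places a gene's start at its most upstream transcript, a summit can be downstream of that start and still upstream of the canonical transcript. A protein-coding TSS was within 2 kb of 86.5% of the shared sites. The nearest TSS was that of a protein-coding gene at 75.9%, of a long noncoding RNA at 20.2% and of a pseudogene at 1.74%. Pseudogenes were nearest at 6.85% of WT As3+ promoter sites without a Nrf2 KO control peak, so that the shared sites differed by −5.11 points (−5.99 to −4.30). In the 8 bins of −log10 p this interval lay below 0 in 5, and the shared sites had the higher share in 2. From 10 to 12 the difference was −0.800 points (−3.93 to 0.786), and from 12 to 15 it was 0.331 (−4.78 to 1.64). TSSs on both strands were within 2 kb of 33.7% (32.9 to 34.6) of shared sites and 25.4% (24.1 to 26.9) of those WT As3+ sites.

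The DNA of the shared sites was GC-rich. In windows of 100 bp on either side of the WT As3+ summit the median GC content was 69.7%, against 63.2% (62.7 to 63.2) at WT As3+ promoter sites without a Nrf2 KO control peak, 62.7% at Nrf2 KO control promoter sites without a WT As3+ peak, and 63.2% around all 19970 protein-coding TSSs. Windows with a GC content above 55% and a ratio of observed to expected CpG above 0.65, here called CpG-rich, made up 72.3% of shared sites and 41.7% of the WT As3+ promoter sites without a Nrf2 KO control peak. The difference was 30.6 points (28.8 to 32.3). Among all protein-coding TSSs 54.3% of windows were CpG-rich, and among the distal shared sites 33.0%. The share of CpG-rich windows was higher at the shared sites in all 8 bins of −log10 p, with an interval above 0 in 7 of them.

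Among the sequence words, the GC box GGGGCGGGG set the shared sites apart from promoter sites found in one library. It was present in 13.8% (13.1 to 14.4) of shared windows, 5.68% (4.96 to 6.47) of WT As3+ promoter windows without a Nrf2 KO control peak and 5.43% of Nrf2 KO control promoter windows without a WT As3+ peak. The first difference was 8.07 points (7.06 to 9.02). Within 9 bins of GC content of 5 percentage points each, the shared sites had the higher share in 7 and an interval above 0 in 5, and no interval lay below 0. The box was yet more frequent around all protein-coding TSSs, at 15.9%. Within the 9 bins the shared sites were above the TSSs in 3. At 70 to 75% GC the box was in 15.1% of shared and 27.2% of TSS windows. CGCGCG was present in 19.6% of shared windows and 10.4% of WT As3+ promoter windows without a Nrf2 KO control peak. Unlike the GC box, it was less frequent around all protein-coding TSSs, at 16.7%, than at the shared sites (difference 2.91 points, 2.01 to 3.82). CGCGCG was not compared within bins of GC content.

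The KLF words CCACACCC and CCACGCCC behaved otherwise. They were present in 8.60% (8.08 to 9.13) of shared windows and 9.48% (8.56 to 10.5) of WT As3+ promoter windows without a Nrf2 KO control peak, a difference of −0.882 points whose interval (−1.98 to 0.161) included 0. All protein-coding TSSs held them in 6.26% of windows, 2.33 points fewer than the shared sites (interval 1.72 to 2.96), and distal shared sites in 10.6%. The TSS windows had the lower GC content. Within the 9 bins of GC content the shared sites were above the TSSs in 7. In the bins with the most shared sites they were not, with 7.79% against 8.38% at 65 to 70% GC and 9.09% against 9.60% at 70 to 75%. KLF words were densest at the summits. Within 50 bp on either side they occurred at 0.510 per kb (95% exact Poisson interval 0.469 to 0.554, 566 words), between 300 and 350 bp away at 0.306 per kb (0.275 to 0.341), and between 450 and 500 bp away at 0.372 per kb (0.337 to 0.410). This density at the summit was not particular to the shared sites. WT As3+ promoter sites without a Nrf2 KO control peak had 0.542 KLF words per kb within 50 bp (0.470 to 0.621). Between 450 and 500 bp away they had 0.279 per kb (0.228 to 0.338). At the shared sites GC boxes were spread more widely than KLF words, with 0.858 per kb within 50 bp, 0.944 between 200 and 250 bp and 0.577 between 450 and 500 bp. By strength, 7.48% of the weakest 1110 sites and 13.2% of the strongest 1110 held a KLF word, and 10.6% and 20.3% held a GC box. Neither kind was present in 79.0% (78.2 to 79.7) of the shared windows.

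The AP-1 word TGACTCA was present in 1.99% of shared promoter windows, 3.08% of WT As3+ promoter windows without a Nrf2 KO control peak and 6.03% of distal shared windows, and the difference of shared promoter minus distal windows was −4.04 points (−4.77 to −3.36). The core of the ARE, TGACNNNGC, was present in 9.17% of shared windows and 8.92% of Nrf2 KO control promoter windows without a WT As3+ peak, a difference of 0.246 points (−0.456 to 0.955). Around all protein-coding TSSs it was present in 10.2%, and in distal shared windows in 9.89% (shared promoter minus distal −0.725 points, −1.72 to 0.237). Of the 1075 ARE cores in the shared windows, 54 also contained the AP-1 word. The ETS word CCGGAAG was found in 6.71% of shared windows and 10.2% of those around all protein-coding TSSs. WT As3+ promoter windows without a Nrf2 KO control peak held it in 4.25%, a difference of 2.46 points (1.63 to 3.22). Against these, the shared sites were higher in 6 of the 9 bins of GC content, with an interval above 0 in 1. In the 8 bins of −log10 p they were higher in 6, with an interval above 0 in 3. CCAAT and TATAAA, elements of the upstream and core promoter, were less frequent in the shared windows than around all protein-coding TSSs, at 11.4% against 26.0% and 1.05% against 7.11%. The TSS windows were centred on the TSS, and the shared windows on summits a median of 309 bp from it. The 2 kinds of window thus cover unlike parts of a promoter, which holds for every word compared with the TSSs. A word match is not a bound site, and a window without one says nothing of the factor.

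**Figure D4:**
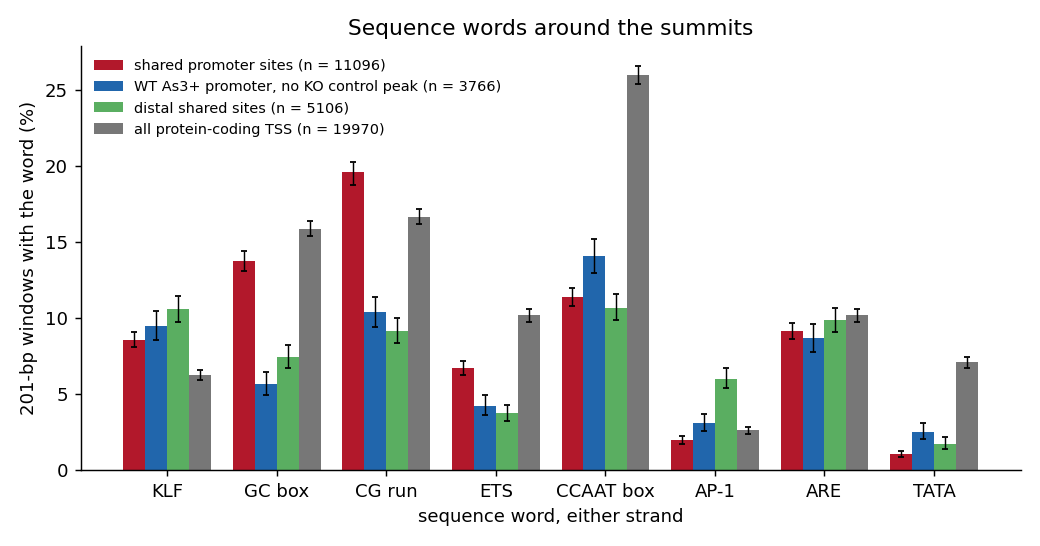
Share of windows of 100 bp on either side of the summit or TSS that hold each sequence word on either strand (vertical axis, %), for shared promoter sites (red), WT As3+ promoter sites without a Nrf2 KO control peak (blue), distal shared sites (green) and all protein-coding TSSs (grey). Bars are shares and whiskers 95% exact binomial intervals. The GC box is in 13.8% of red and 5.68% of blue windows, the KLF words are near 9% in both, and the AP-1 word is highest in the green windows at 6.03%.

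Of 19970 protein-coding genes, 8521 had a shared site within 2 kb of the TSS, or 42.7%. By comparison 65.4% had a Nrf2 KO control peak of any kind, 50.6% a WT As3+ peak, 0.726% a WT control peak and 0.195% a Nrf2 KO As3+ peak. A single shared site lay at 6268 of the 8521 genes and 2 at 1882, and the most were 7 at HES4, a HES-family repressor. By chromosome the share of genes with a shared site ran from 19.3% on X (16.7 to 22.1) and 32.0% on 11 to 54.8% (50.5 to 59.0) on 20. The counts of gene lists that follow are read against the 42.7%. Neighbouring genes can share a site, and the lists differ in CpG island content, so the lists are described without a test.

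NFE2L2, the targeted gene, had a shared site. Its summit lay 117 bp downstream of the gene's annotated start, upstream of the canonical transcript, with a fold of 8.54 and a −log10 p of 18.4 in WT As3+ and of 5.52 and 8.32 in Nrf2 KO control. NFE2L2 had no Nrf2 KO As3+ peak. A peak at the promoter does not report on the edit in exon 2, so these lists do not check the knockout. Of 15 genes on a list of Nrf2 regulators and partners that includes NFE2L2 itself, 12 had a shared site (95% interval 51.9 to 95.7%). The 3 without one were BACH1, BTRC and MAFK. MAFG, a small MAF partner, had folds of 8.85 in WT As3+ and 6.12 in Nrf2 KO control, and RBX1, a subunit of the ubiquitin ligase that degrades Nrf2, 9.74 and 9.01. KEAP1, chosen after its values were seen, had 5.47 and 4.40.

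Nrf2 target genes had a shared site at 19 of 34 promoters (55.9%, 37.9 to 72.8). GCLM, the modifier subunit of glutathione synthesis, had folds of 9.49 in WT As3+ and 5.50 in Nrf2 KO control, and the efflux transporter ABCC3 had 8.55 and 8.35. Named after their values were seen, HMOX1 (heme oxygenase) had 6.32 and 4.09 and NQO1 (a quinone reductase) 4.21 and 6.04. The 15 targets without a shared site included GCLC, SLC7A11 and TXNRD1. Of 20 genes of arsenic transport, methylation and metal binding, 10 had a shared site, among them the phosphate carrier SLC20A1 (8.67 and 4.96) and the metallothionein MT2A (5.85 and 6.93).

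Genes of the KLF and SP family had shared sites at 16 of 27 promoters (59.3%, 38.8 to 77.6). KLF4 itself had 2, and the stronger, 599 bp downstream of the annotated gene start, had a fold of 8.50 in WT As3+ and 5.65 in Nrf2 KO control, with the summits 363 bp apart. KLF10 had folds of 13.4 and 9.03, SP1 9.51 and 4.89, and SP3 9.53 and 6.94. The 11 members without a shared site included KLF5, KLF7 and KLF9. AP-1 family genes had one at 9 of 14, among them FOS with folds of 8.20 and 7.73. Pluripotency factors had one at 5 of 15, namely KLF4, MYC, TBX3, STAT3 and SALL4, whereas NANOG, POU5F1 and SOX2 had none. Of 23 genes that the study's own text discusses, which were not chosen independently of these libraries, 16 had a shared site. EMT factors had one at 9 of 18, with ESRP2, an epithelial splicing factor, at 6.05 and 7.86 and CDH2, N-cadherin, at 7.41 and 7.43.

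Housekeeping and stress lists spread around or above the figure for all genes. Unfolded protein and integrated stress genes had shared sites at 15 of 20 promoters, ATF4 and ERN1 among them, and heat shock genes at 15 of 22, with the chaperonin HSPE1 at folds of 8.45 in WT As3+ and 8.25 in Nrf2 KO control. Enhancer and promoter chromatin enzymes had one at 21 of 28 (75.0%, 55.1 to 89.3), with EZH2, the H3K27 methyltransferase, at 6.75 and 9.37. Glycolysis genes had one at 16 of 22, led by PKM, pyruvate kinase, at 11.9 and 6.67. Ubiquitin E2 enzymes had one at 24 of 34, cell cycle regulators at 21 of 30, hedgehog pathway genes at 11 of 16, RNA polymerase II subunits at 8 of 12, and spliceosome genes and translation initiation factors at 35 of 55 each. Lower in order came DNA repair genes with 21 of 38, Mediator subunits with 18 of 33, aminoacyl-tRNA synthetases and complex I subunits with 17 of 37 each, replication origin genes with 16 of 38, cytosolic ribosomal proteins with 36 of 86, ETS factors with 9 of 22, mitochondrial ribosomal proteins with 31 of 78 and proteasome subunits with 12 of 39.

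Families in clusters or with tissue-restricted use had few shared sites. Zinc-finger genes of chromosome 19 had one at 69 of 246 promoters (28.0%, 22.5 to 34.1), HOX genes at 9 of 39 and replication histones at 7 of 76 (9.21%, 3.78 to 18.1). Clustered protocadherins had one at 2 of 53, keratin genes at 3 of 55 and olfactory receptors at 1 of 400 (0.250%, 0.00633 to 1.38). Replication histone genes encode near-identical proteins, and how uniquely reads map at their promoters was not tested. The Nrf2 KO control list had peaks at 33 of the 39 HOX promoters and 41 of the 76 histone promoters, and the WT As3+ list at 18 and 11. The longer Nrf2 KO control list also had the higher count over all protein-coding genes (65.4% against 50.6%) and at protocadherins (11 against 4) and keratins (14 against 5).

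The label of the cells was compared with marker promoters, bearing in mind that a peak is not expression. Bronchial epithelial genes had a shared site at 8 of 22 promoters, among them ELF3, ITGB4 and KRT18, while KRT5, KRT14, EPCAM and TP63 had none. Fibroblast markers had one at 1 of 12 (COL1A1, folds of 10.2 and 5.58), immune markers at 2 of 12, endothelial markers at 1 of 10, neuron markers at 6 of 10 and hepatocyte markers at 0 of 11, which allows a share of up to 28.5% by the exact interval.

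**Figure D5:**
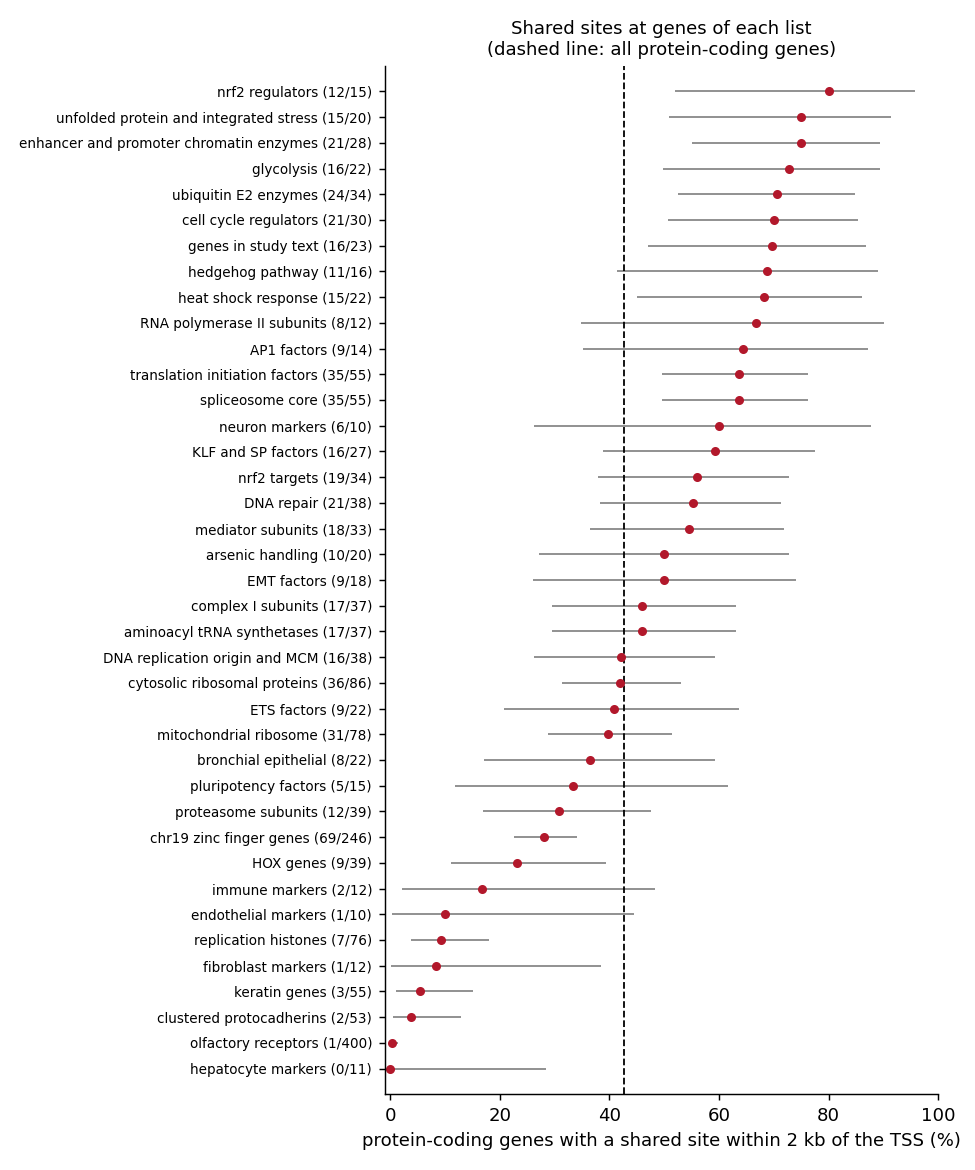
Share of the protein-coding genes of each list with a shared site within 2 kb of the TSS (horizontal axis, %), with the count of genes beside each list name. Points are shares, lines 95% exact binomial intervals, and the dashed line is the 42.7% of all protein-coding genes. Nrf2 regulators, a list that includes NFE2L2 itself, are at the top with 12 of 15. Hepatocyte markers are at the bottom with 0 of 11, and most lists have intervals that cross the line.

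The rule has limits of distance and overlap, and sites on either side of them had similar values. The shared sites closest inside the 2 kb limit were at CNN2 and SSBP4, each with a summit 1997 bp from a TSS and WT As3+ folds of 4.84 and 3.93. Just outside it were sites near AATBC at 2001 bp, with a fold of 5.31, and CEMP1 at 2003 bp, with 5.50. The smallest overlaps were of 1 bp, at TMEM80 and MAP4K5, and 79 sites overlapped by 10 bp or less. At the other side of this limit, Nrf2 KO control peaks abutted WT As3+ promoter sites at SAMD11 and METTL3 without sharing a base. Of the 3766 WT As3+ promoter sites without an overlapping Nrf2 KO control peak, 1641 (43.6%) had one within 500 bp.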

How the data were processed

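A single KLF4 ChIP-seq library per condition was sequenced in 75-nt reads. Per the labels and methods, base calls were made with bcl2fastq 2.17 and reads aligned to GRCh38/hg38 with BWA. The peak caller is not given in the sources used here. The authors deposited 1 peak list per library, with a score per peak, a fold enrichment over local background (a ratio), a −log10 p and a −log10 q, called per library. The score was not used. Libraries for histone marks and input were left aside.

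From these lists, intervals were overlapped (at least 1 bp), placed against GENCODE 44 gene starts, and read from the hg38 sequence in windows of 100 bp on either side of each summit, using Python 3.11.15, numpy 2.4.6, pandas 2.3.3, scipy 1.17.1 and pysam 0.24.0. Fragments and background were solved from fold and p. Printed windows exclude annotated UTRs and chromosome 8, which passed over 2 sites. Scripts were tested on simulated data. With 1 library per condition no p-value across peaks was computed. Shares carry exact Clopper-Pearson 95% intervals and differences Newcombe intervals, for counting error only. Depth is unknown.

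The sites, gene lists and comparisons were chosen with earlier results of these data known. Named genes were the 10 strongest sites in WT As3+, the 5 strongest in Nrf2 KO control, those with a Nrf2 KO As3+ peak, those nearest the 2 kb limit, and up to 3 per list by WT As3+ −log10 p. Other members of a list, genes named for lacking a site, HES4 and the sites at the overlap limit were picked after their values were seen. Values of 2 genes that this rule names are not reported here.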

Additional observations from a re-analysis of the deposited data

Results flagged for a closer look

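The shared sites with a Nrf2 KO As3+ peak numbered 9. The rule itself fixed a WT As3+ peak, no WT control peak and a Nrf2 KO control peak at every shared site, so only the Nrf2 KO As3+ list was free to vary. That list held 130 peaks in all, from a library whose lowest background was 1.64 fragments against 0.491 in Nrf2 KO control. The opposite change in WT and Nrf2 KO at the remaining sites was thus mostly set by the rule. A difference between WT and Nrf2 KO in the change with As3+ was not tested, since each condition had 1 library.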

How the results depend on the processing

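Of 60 values recomputed under 10 alternatives, 36 stayed and 24 moved. Counts stayed if within a broad ratio of the main value, shares and medians only if inside the main counting interval. The counts that stayed thus include 8451 sites against 11096 and 6911 genes against 8521, both with the Nrf2 KO control list cut as described below. The share of WT As3+ promoter sites with a Nrf2 KO control peak (74.7%) became 78.1% within 1 kb of a TSS, 69.2% within 5 kb and 78.4% at protein-coding TSSs only. Requiring overlap of 50% of both intervals left 5784 sites at 5242 genes, a share of 38.9%, 3 sites with a Nrf2 KO As3+ peak, a median GC content of 70.6% and a summit distance of 93.0 bp. With the WT As3+ summit inside the Nrf2 KO control interval the share was 60.3%, GC content 70.6% and summit distance 104 bp. A −log10 q of at least 5 in both lists left 3551 sites at 3391 genes, a share of 58.8%, GC content of 72.1% and KLF words in 9.52%. In windows of 50 bp on either side GC content was 70.3% and KLF words were in 4.59%, and in windows of 200 bp on either side 68.3% and 15.3%. Cutting the Nrf2 KO control list to the length of the WT As3+ list, an alternative chosen after seeing the data, gave a share of 56.9%, GC content of 70.6% and a summit distance of 145 bp. Stricter overlap or a shorter Nrf2 KO control list can only lower the number and share of sites. A longer window can only raise the share with a KLF word. The changes in GC content and summit distance, and in the share and KLF words at the stricter q, were not fixed in this way. No paired analysis was possible because each condition had 1 library, and no replicate could be left out. Depth could not be assessed from peak lists.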
